A study of Mus musculus with 3 samples.

Results

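The genes described here encode the mouse major histocompatibility complex class I heavy chains H2-K1, H2-D1, H2-Q4, H2-Q6, H2-Q7, H2-T22, H2-T23 and H2-M3, together with B2m, which encodes the light chain beta-2 microglobulin. They were chosen by gene symbol, with earlier results of these data known, and are 9 of the 55536 annotated genes in the tables. The 3 libraries form 1 group of bone-marrow-derived macrophages from C57BL/6J mice. The cells were given Lipid A at 100 ng/ml for 12 h, were washed and left for 12 h, and were given Lipid A at 100 ng/ml for another 50 min, with no other treatment or genetic change in the labels. Lipid A is the part of bacterial lipopolysaccharide that Toll-like receptor 4 senses. RNA bound to chromatin, which includes transcripts still being made and spliced, was cleared of ribosomal RNA and sequenced. With no untreated or singly treated cells among these libraries, the values are levels only, and a response to Lipid A could not be measured.

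A class I molecule is a heavy chain held together with beta-2 microglobulin around a peptide made in the cell, and it shows that peptide to CD8 T cells and natural killer cells at the cell surface. Classical heavy chains (H2-K1 and H2-D1 in this strain) vary greatly between mouse strains and present many peptides, whereas the nonclassical Q, T and M heavy chains vary less and have narrower roles. Macrophages present antigen, and the class I genes are known targets of interferon and NF-kappaB signalling.

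The heavy chain genes lie on chromosome 17 of build mm10 and arose by duplication, so their transcripts share sequence and reads can match several of them. The start of coding exon 4 is shown for the 8 heavy chains because it encodes part of the membrane-proximal immunoglobulin-like domain and shows both long runs that the genes share and the single bases that tell them apart. The 90 bases are from GENCODE M21 transcripts, run 5′ to 3′ on the coding strand, and carry capitals where a base differs from H2-K1. The H2-K1 stretch lies at chr17:33997471-33997560 on the minus strand and the H2-D1 stretch at chr17:35265784-35265873 on the plus strand.
H2-K1: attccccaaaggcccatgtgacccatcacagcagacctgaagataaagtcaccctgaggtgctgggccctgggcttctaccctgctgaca
H2-D1: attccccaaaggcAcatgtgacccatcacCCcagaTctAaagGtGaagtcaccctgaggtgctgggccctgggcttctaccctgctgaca
H2-Q4: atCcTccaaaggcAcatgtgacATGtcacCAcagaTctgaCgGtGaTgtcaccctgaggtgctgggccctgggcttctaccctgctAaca
H2-Q6: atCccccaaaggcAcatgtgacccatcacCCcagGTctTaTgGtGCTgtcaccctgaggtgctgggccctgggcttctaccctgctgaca
H2-Q7: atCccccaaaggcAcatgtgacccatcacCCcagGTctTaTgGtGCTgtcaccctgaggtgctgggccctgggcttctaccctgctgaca
H2-T22: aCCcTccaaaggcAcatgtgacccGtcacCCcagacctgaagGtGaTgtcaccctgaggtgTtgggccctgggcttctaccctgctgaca
H2-T23: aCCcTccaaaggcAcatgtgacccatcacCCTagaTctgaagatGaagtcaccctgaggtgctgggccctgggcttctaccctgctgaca
H2-M3: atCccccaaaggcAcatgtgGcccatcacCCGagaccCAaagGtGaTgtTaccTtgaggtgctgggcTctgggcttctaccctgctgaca
H2-D1 differed from H2-K1 at 7 of these 90 positions, H2-T23 at 9, H2-T22 at 11, and H2-Q4 and H2-M3 at 14 each. H2-Q6 and H2-Q7 had the same 90 bases and differed from H2-K1 at 12. Over the aligned coding sequence, H2-Q6 and H2-Q7 were 95.4% identical, H2-K1 and H2-D1 91.5%, and H2-K1 and H2-M3 73.8%.

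The part of each gene that can be told apart was measured as the share of 31-base stretches of its transcripts that occur in no other annotated gene, on either strand. B2m, at chr2:122147686-122153083 on the plus strand, had 100% of its own, and H2-M3 had 95.4%. H2-K1 had 77.2%, H2-T23 74.2%, H2-D1 73.1% and H2-Q7 60.8%. The lowest shares belonged to H2-Q6 at 48.2%, H2-Q4 at 46.95% and H2-T22 at 32.6%. H2-T22 shared 47.2% of its stretches with H2-T10, a near copy annotated as a polymorphic pseudogene. H2-Q7 shared 22.4% with H2-Q10 and 15.5% with H2-Q5, H2-Q6 shared 24.6% with H2-Q4, 18.4% with H2-Q7 and 12.9% with H2-Q5, and H2-Q4 shared 19.5% with H2-Q6. H2-K1 shared 11.1% of its stretches with H2-D1, which shared 13.8% of its own with H2-K1. H2-T23 shared 12.4% with the pseudogene H2-T-ps.

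The libraries held 13897176, 19597343 and 19348626 expected counts in replicates 1, 2 and 3, in tables derived from a transcriptome alignment. Tables made directly from the reads held 20743071, 34961536 and 32857771 estimated counts. Starting RNA was 1 µg, 250 ng and 500 ng in that order. The labels name the same donor for all 3 libraries and do not state whether separate animals or cultures were used. SDs therefore describe the spread of these libraries alone, which may be technical, and p-values likewise apply to these libraries alone. All 8 macrophage markers were detected, from Fcgr1 at 27.4 to Adgre1 at 418 mean TPM, and their summed level was 1114 to 1357 TPM. TPM is the usual relative abundance of a transcript, scaled to a fixed total per library and corrected for length. Among 29 markers of other cell types, Kdr alone reached 1 TPM in every library of the alignment-based tables. It stood at 8.92, 2.27 and 2.01 TPM, and the 29 together summed to 4.07 to 11.5 TPM. In the read-based tables, 3 markers did, Kdr, Zbtb46 and Cd3d, and the sum was 32.2 to 34.2 TPM. Cd3d, a T cell receptor subunit, stood at 12.5, 15.6 and 18.8 TPM there and at 0 in every alignment-based table. The erythroid markers Hba-a1 and Klf1, 5 of the 7 T and natural killer cell markers and 10 of the 29 in all stood at 0 in every library of the alignment-based tables. The part of other cells in the levels below was not tested.

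All 9 genes were detected, meaning that none was below 1 TPM in any library, whereas 20.2% of all annotated genes and 39.2% of protein-coding genes were. All 9 also stood above 10 TPM in every library, and the median of their means was 147 TPM beside 8.35 over protein-coding genes with a mean of at least 1 TPM. A level corresponding to 3 counts would be at most 0.346 TPM for any of them, so depth does not limit their detection. Together the 8 heavy chains took 3848, 2813 and 4033 TPM in replicates 1, 2 and 3, and 0.342% ± 0.0629 (SD, n = 3) of all expected counts.

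**Figure D1:**
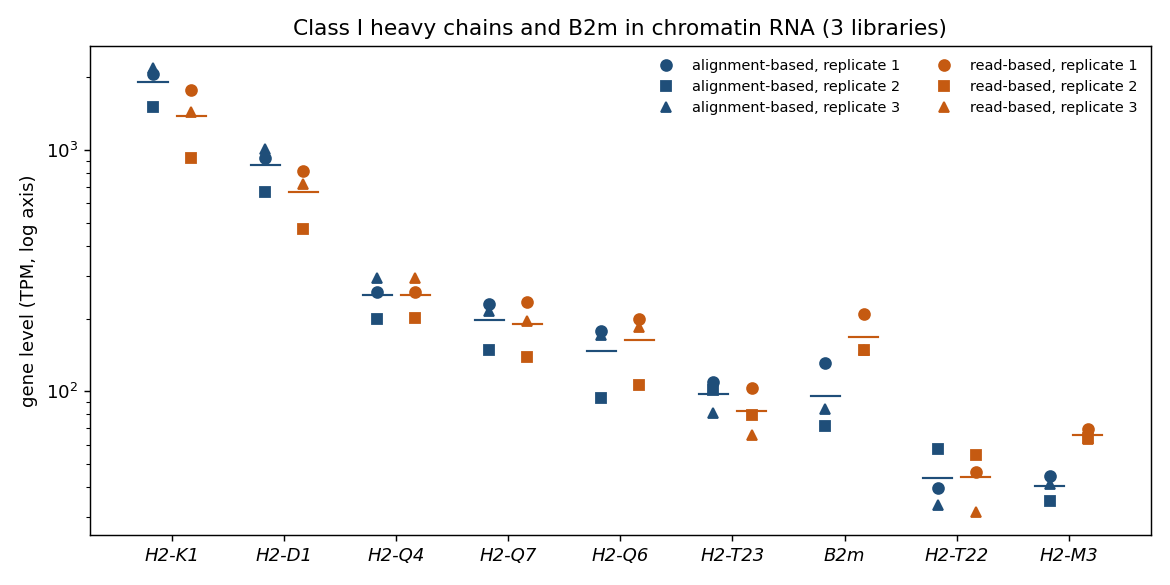
Level of each gene in TPM on a log axis, per library, in the alignment-based tables (blue) and the read-based tables (orange). Horizontal lines are means over 3 libraries. H2-K1 and H2-D1 stood above all other members in every library, and B2m and H2-M3 were higher in the read-based tables.

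H2-K1, a classical heavy chain gene at chr17:33996017-34000347 on the minus strand, stood at 2066, 1509.6 and 2184 TPM. Its mean of 1920.1 ± 360.3 (SD, n = 3) ranked 3 among protein-coding genes, and its read-based mean ranked 13. H2-D1, the other classical gene of this strain, at chr17:35262730-35267499 on the plus strand, stood at 923, 669.7 and 1013 TPM, a mean of 868 ± 178 (SD, n = 3) and rank 18, or 45 in the read-based tables. Replicate 2 was lowest for both genes, and their ranges did not overlap. H2-K1 alone made up 53.8% ± 0.279 (SD, n = 3) of the summed heavy chain TPM and H2-D1 24.3% ± 0.707, so these classical genes together gave 78.2% ± 0.985. In the read-based tables the pair gave 71.6% ± 2.79.

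The ratio of H2-K1 to H2-D1 was 2.24, 2.25 and 2.16 in replicates 1, 2 and 3, and varied far less than either gene's level. On the log2 scale H2-K1 was higher by 1.15 ± 0.03 (SD, n = 3), and higher in 3 of 3 libraries. The exact two-sided sign-flip test gave p = 0.25, which is the smallest that this test can give with 3 libraries, so no comparison made with it here can pass a threshold of 0.05. The read-based tables gave a log2 difference of 1.03 ± 0.08. The order turned when protein-coding transcripts alone were counted. H2-K1 then stood at 202, 345 and 532 TPM and H2-D1 at 726, 493 and 806, a log2 difference of -0.99 ± 0.74 (SD, n = 3, exact sign-flip p = 0.25). H2-K1 was thus the lower gene in all 3 libraries on that count, most of all in replicate 1, where the log2 difference was -1.84 beside -0.52 and -0.60 in replicates 2 and 3. Protein-coding transcripts in the read-based tables gave -0.81 ± 0.52, and the single transcript with the longest coding sequence of each gene gave -0.61 ± 0.77 in the alignment-based tables, with a near tie of -0.08 in replicate 2. The gene-level order of H2-K1 and H2-D1 therefore holds for all annotated transcripts together and not for their protein-coding transcripts. H2-K1 has 16 annotated transcripts, 8 of them protein-coding, whereas H2-D1 has 4, of which 3 are protein-coding. Whether the turn depends on this annotation was not tested.

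**Figure D2:**
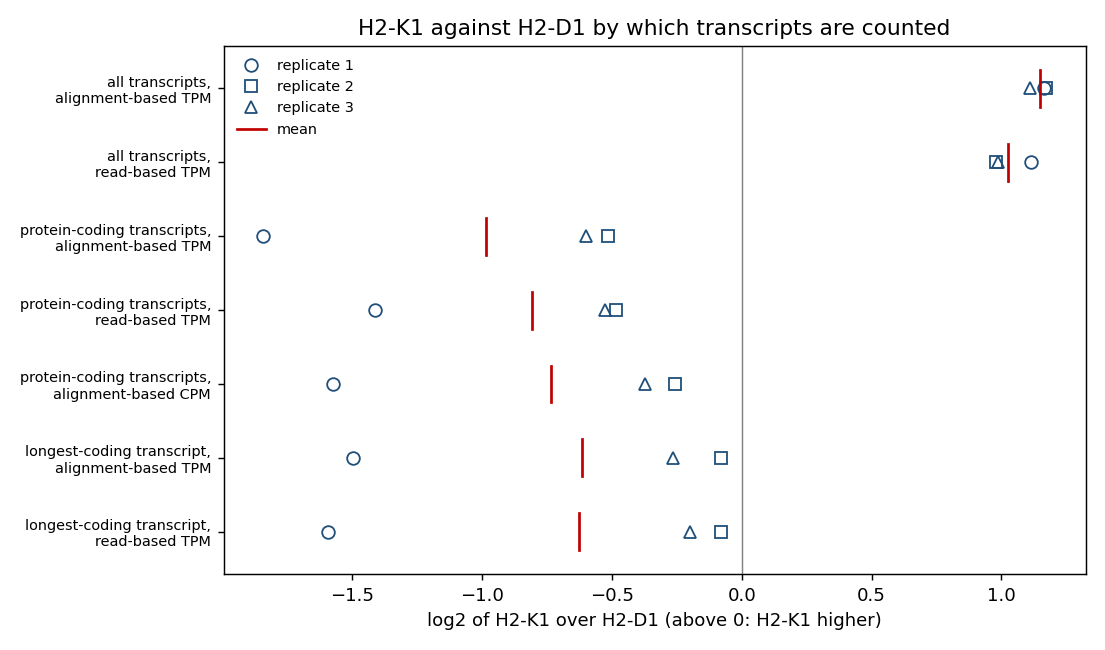
Log2 of H2-K1 over H2-D1 in each of 3 libraries (symbols) with their mean (red line), for all transcripts, protein-coding transcripts and the transcript with the longest coding sequence. The points lie above 0 for all transcripts and below 0, with replicate 1 lowest, for each count of protein-coding transcripts.

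Annotated transcripts were grouped by their GENCODE class to see which kind carried each gene's TPM. A retained-intron transcript is one that keeps at least 1 intron and is not annotated as coding. In H2-K1, protein-coding transcripts held 9.79%, 22.8% and 24.4% of the TPM in replicates 1, 2 and 3, a mean of 19.0% ± 8.01 (SD, n = 3), and retained-intron transcripts held 75.3% ± 8.06. The retained-intron transcript H2-K1-215 alone, of 457 bases, stood at 802, 343 and 698 TPM, above the main coding transcript H2-K1-201 (1619 bases) at 123, 238 and 352 TPM. The order of these transcripts depended on the measure: in replicate 2 the read-based tables put H2-K1-215 at 108 and H2-K1-201 at 179 TPM, and by expected counts H2-K1-201 was above H2-K1-215 in replicates 2 and 3. H2-K1-215 was lowest in replicate 2, whereas H2-K1-201 was lowest in replicate 1. TPM gives weight to short transcripts, and by expected counts the protein-coding share of H2-K1 was higher, at 19.3%, 38.5% and 42.4%. H2-D1 was made up differently, with 77.3% ± 3.19 (SD, n = 3) of its TPM in protein-coding transcripts. The full-length H2-D1-202 (2102 bases) held 340.8 TPM on average and the 391-base H2-D1-203 held 312 TPM. H2-K1 has 7 annotated retained-intron transcripts and H2-D1 has 1, and the effect of this on the shares was not tested.

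H2-Q7 and H2-T23 resembled H2-K1 in this respect. H2-Q7 had 5.69%, 3.06% and 4.597% of its TPM in protein-coding transcripts, and its retained-intron transcript H2-Q7-206 of 4209 bases held 162, 104 and 139.6 TPM. H2-T23 had 10.2%, 19.7% and 22.3%. H2-Q4 had 72.0% ± 5.10 and H2-T22 71.8% ± 10.3 (SD, n = 3). Thus 3 of the 9 genes (H2-K1, H2-Q7 and H2-T23) had under 50% of their TPM in protein-coding transcripts, where 40.8% of protein-coding genes with a mean of at least 1 TPM did. Among the 6 genes with an annotated retained-intron transcript the count was the same 3, where 55.6% of such genes did, so this count is not above the background. For H2-Q6, H2-M3 and B2m no retained-intron transcript is annotated and the protein-coding share was 100% by construction. The protein-coding share was lowest in replicate 1 for H2-K1, H2-T22 and H2-T23 and in replicate 2 for H2-D1, H2-Q4 and H2-Q7. It was lowest in replicate 1 for 43.5% of genes with a retained-intron transcript, so 3 of 6 is near the background. The median share over genes with a retained-intron transcript was 44.2% in replicates 1 and 2 and 50.0% in replicate 3.

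**Figure D3:**
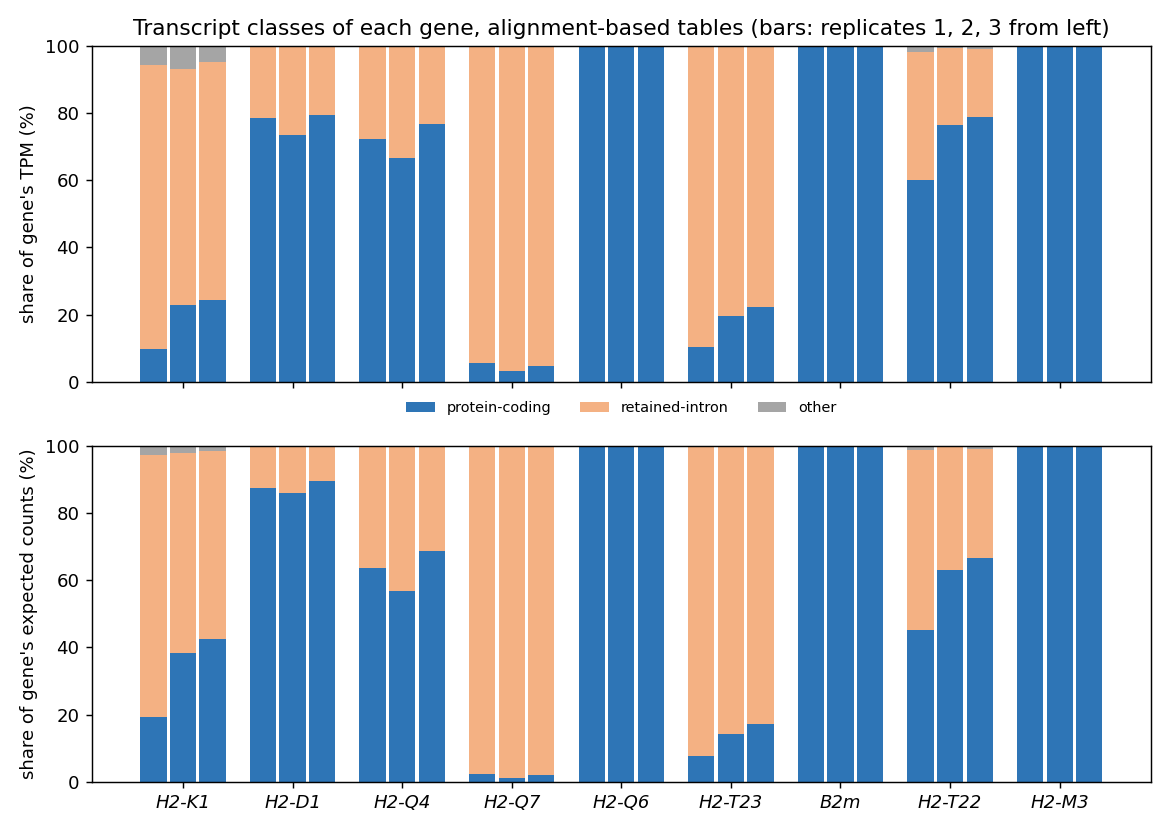
Share of each gene's TPM (upper panel) and expected counts (lower panel) in protein-coding, retained-intron and other transcripts, with 1 bar per library. H2-K1, H2-Q7 and H2-T23 were carried mainly by retained-intron transcripts, while H2-Q6, B2m and H2-M3 have none annotated.

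The Q genes encode nonclassical heavy chains, of which H2-Q6 and H2-Q7 are known as sources of the Qa-2 antigen, a molecule that can be anchored by lipid. H2-Q4, at chr17:35379617-35385290 on the plus strand, stood at 257, 198 and 294 TPM, a mean of 250.0 ± 48.3 (SD, n = 3). H2-Q7, at chr17:35439155-35443773 on the plus strand, stood at 229, 148 and 215 TPM, a mean of 198 ± 43.2. H2-Q6, at chr17:35424850-35430055 on the plus strand, stood at 178, 93.2 and 170.1 TPM, a mean of 147 ± 46.9. Replicate 2 was lowest for each of the 3, and their ranges overlapped, although H2-Q4 exceeded H2-Q7 and H2-Q7 exceeded H2-Q6 within every library. Since H2-Q6 and H2-Q7 are near copies in coding sequence, their sum was also taken. It was 344.9 ± 90.01 TPM in the alignment-based tables and 352 ± 96.9 in the read-based tables (SD, n = 3). The sum can still depend on the split of reads. The mean effective lengths are 1861 bases for H2-Q6 and 3055 for H2-Q7, and both genes share stretches with others. With H2-Q5 and H2-Q10 added, the sum was 870 ± 322 TPM, and 720 ± 281 in the read-based tables. On protein-coding transcripts alone, H2-Q7 stood at 9.16 ± 4.30 TPM and H2-Q6 at 147 ± 46.9. The antisense gene Gm11131 overlaps H2-Q4 and holds 16.8% of its stretches. Gm11131 stood at 1.81 TPM on average, and at 6.82 in the read-based tables. The sources used here do not say whether the counting used strand.

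By mean TPM over all transcripts the T and M genes stood below the Q genes, although H2-T23 exceeded H2-Q6 in replicate 2. On protein-coding transcripts alone, H2-T23 at 16.4, H2-T22 at 31.4 and H2-M3 at 40.2 TPM stood above H2-Q7 at 9.16. H2-T23, which encodes the Qa-1 heavy chain that binds leader peptides of other class I molecules and is read by CD94/NKG2 receptors, lies at chr17:36029773-36032855 on the minus strand. It stood at 109.5, 101 and 81.1 TPM, a mean of 97.1 ± 14.5 (SD, n = 3), and unlike most members was lowest in replicate 3. H2-T22, a ligand of some gamma-delta T cells, lies at chr17:36037128-36042747 on the minus strand and stood at 39.6, 57.4 and 33.6 TPM. It was the single member that was highest in replicate 2. With its near copy H2-T10 the sum was 52.2 ± 12.1 TPM and 53.0 ± 12.5 in the read-based tables. H2-M3, which presents peptides that start with formylated methionine, as bacterial ones do, lies at chr17:37270220-37274484 on the plus strand and stood at 44.6, 35.0 and 41.2 TPM. Its CV of 12.1% was the lowest of the 9, beside a median of 18.2% over protein-coding genes with a mean of at least 30 TPM. The antisense gene A930015D03Rik overlaps H2-T22 and H2-T23 and holds 27.7% of the H2-T22 stretches. It stood at 0 TPM in every library of the alignment-based tables and at 0.982 TPM on average in the read-based ones.

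B2m, whose product pairs with all of these heavy chains, stood at 131, 71.9 and 84.0 TPM, a mean of 95.5 ± 31.1 (SD, n = 3). Replicate 1 was highest, and the CV of 32.5% was the highest of the 9 in the alignment-based tables, with H2-Q6 next at 31.8%. In the read-based tables the CV of B2m was 20.4%, and H2-K1 had the highest at 30.8%. The summed heavy chain TPM exceeded B2m TPM 29.4, 39.1 and 48.0 times in replicates 1, 2 and 3. The log2 difference was 5.25 ± 0.35 (SD, n = 3, exact sign-flip p = 0.25), with the heavy chains higher in 3 of 3 libraries. The size of this excess depended on the tables, since the read-based tables gave ratios of 16.8, 13.8 and 20.1. On protein-coding transcripts alone the heavy chains exceeded B2m 15.5-fold in the alignment-based tables and 7.64-fold in the read-based ones. On each of these counts the heavy chains stood above B2m in all 3 libraries. B2m lies within the opposite-strand gene Patl2, which stood at 0.123 TPM.

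By mean TPM the order was H2-K1, H2-D1, H2-Q4, H2-Q7, H2-Q6, H2-T23, B2m, H2-T22 and H2-M3. Of the 8 neighbouring pairs, 5 kept the same sign in all 3 libraries with a mean log2 difference above its SD. Each of these 5 had p = 0.25 in the exact sign-flip test and 0.40 after Benjamini-Hochberg adjustment over the 8 pairs. H2-Q6 with H2-T23, H2-T23 with B2m, and H2-T22 with H2-M3 did not differ beyond their spread. The first of these pairs was in the opposite order in replicate 2, and the other two in replicates 1 and 3. Without replicate 2 the order itself changed: B2m, with a mean of 107 TPM, stood above H2-T23 with 95.3, and H2-M3 with 42.9 above H2-T22 with 36.6. In that changed order all 8 pairs met the same rule. The order was set by the same replicates 1 and 3, so this does not show a firmer separation. The log2 difference of H2-T23 over B2m in them was -0.26 and -0.05. In the read-based tables the order was H2-K1, H2-D1, H2-Q4, H2-Q7, B2m, H2-Q6, H2-T23, H2-M3 and H2-T22, and B2m did not differ beyond its spread from H2-Q7 or H2-Q6.

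The alignment-based and read-based levels of each gene were then set side by side. None of the 9 genes differed more than 2-fold between the tables in every library, where 14.5% of genes with a mean of at least 1 TPM did. The read-based level of B2m was 1.59, 2.06 and 1.77 times the alignment-based level in replicates 1, 2 and 3, and that of H2-M3 was 1.56, 1.82 and 1.55 times. H2-Q6 was also higher in every library, with a mean ratio of 1.11. H2-K1 was lower in every library, at ratios of 0.857, 0.615 and 0.657, as were H2-D1 with a mean ratio of 0.765 and H2-T23 with 0.845. Without replicate 1, 5 genes were lower in place of 3, as H2-Q7 and H2-T22 joined them. H2-Q4 had the same level in both, with a mean ratio of 1.00. The adjusted exact sign-flip p was 0.375 for each of the 6 genes with the same sign in every library (Benjamini-Hochberg over 9 genes, n = 3). The median ratio over all protein-coding genes with a mean of at least 1 TPM was 1.31, so the ratios of B2m and H2-M3 lay above that of the typical gene and those of the other 7 below it.

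**Figure D4:**
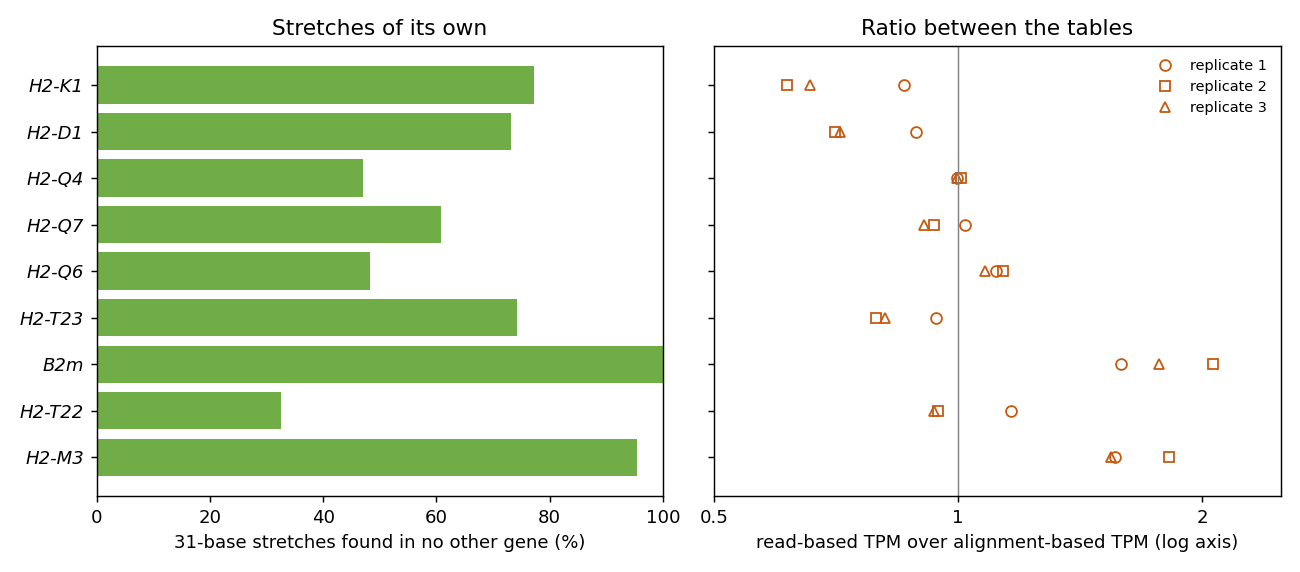
Left, share of each gene's 31-base transcript stretches found in no other annotated gene, in percent. Right, read-based over alignment-based TPM in each of 3 libraries on a log axis, with the line at equal levels. B2m and H2-M3 had the highest ratios and the highest shares. H2-K1 and H2-D1 had the lowest mean ratios, at shares of 77.2% and 73.1%. H2-T22 and H2-Q4, with the lowest shares, had mean ratios of 1.01 and 1.00. A link between share and ratio was not tested.

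The authors' credible intervals, which describe the assignment of reads within 1 library, were narrow for these genes. Their width relative to the posterior mean was 4.35% to 5.01% for H2-K1 and 13.7% to 14.4% for H2-M3, whose intervals were the widest on average. No member had a width above 20% in every library, whereas 76.7% of genes with a mean of at least 1 TPM did, and 20.8% of those with a mean of at least 30 TPM. The CVs between libraries were 12.1% to 32.5%. A CV is 1 SD over the mean whereas a width spans the whole interval, so they are not on the same scale. For H2-K1, H2-D1, H2-Q4, H2-Q6, H2-Q7 and H2-T23 the deposited TPM lay above the upper bound of its own interval in all 3 libraries. In replicate 1 H2-K1 had a TPM of 2066 and an interval of 1873 to 1959. This was true of 6.73% of genes with a mean of at least 1 TPM and of 32.6% of those with at least 30 TPM. The posterior means gave an H2-K1 mean of 1790.3 ± 330.9 TPM (SD, n = 3) and the same order of the 9 genes.

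Replicate 2 was the lowest library for 7 of the 9 genes, a count made after the values had been seen. H2-T22 and H2-T23 were the exceptions, and were lowest in replicate 3. Replicate 2 was lowest for 19.7% of protein-coding genes with a mean of at least 1 TPM and for 35.9% of those with at least 30 TPM. On the log2(TPM + 1) scale, the deviation of replicate 2 from the gene's mean was -0.33 for H2-K1, -0.35 for H2-D1, -0.60 for H2-Q6 and -0.36 for B2m, while the median over protein-coding genes was 0.15. Replicate 1 was the highest library for 5 genes and replicate 3 for H2-K1, H2-D1 and H2-Q4. In the read-based tables replicate 2 was lowest for 6 of the 9, and H2-K1 and H2-D1 were highest in replicate 1. The starting amount was lowest in replicate 2, and since it differed in every library, amount and library cannot be told apart. In bulk RNA, fewer expressing cells and less RNA per cell cannot be told apart either.

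Of 28 other class I and class I-like genes, 25 had an entry in the tables, 10 were detected and 10 stood at 0 TPM in every library of the alignment-based tables. In the read-based tables, 13 were detected, and H2-Bl, at 0 in the alignment-based tables, stood at 5.76 TPM on average. Highest was H2-Q5, annotated as a polymorphic pseudogene, at 630.3, 250.4 and 669 TPM, which placed it between H2-D1 and H2-Q4. In the read-based tables it stood at 539.6, 174 and 303 TPM, and it was lowest in replicate 2 in both. The pseudogene H2-K2 stood at 144, 65.7 and 113 TPM and H2-T24 at 66.2, 45.6 and 33.5 TPM. H2-Q10, which shares sequence with H2-Q7 and is known as a secreted molecule of the liver, stood at 12.5, 5.66 and 6.29 TPM while its read-based levels were 34.0, 26.4 and 27.9 TPM. H2-M1, which stood at 0 in both kinds of table, belongs to the M family with H2-M3.

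Genes that load class I molecules with peptide were present throughout. All 13 genes of the peptide loading and immunoproteasome list were detected, with a median of 32.8 TPM. Psme2, a subunit of the proteasome activator PA28, was highest at 252, 246 and 227 TPM. Tapbp, which encodes tapasin, followed at 169, 116 and 114 TPM, and Tap1, a subunit of the peptide transporter, at 121, 112 and 82.1 TPM. Tapbpl, a tapasin relative, was lowest at 3.76 ± 0.733 TPM (SD, n = 3). In the alignment-based tables the means of Psme2, Tapbp and Tap1 exceeded that of B2m, and that of Psme2 was below that of H2-Q4. Both orders depended on the table, since the read-based means were 358 TPM for Psme2, 154 for Tapbp and 107 for Tap1 beside 168 for B2m and 250.1 for H2-Q4.

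Of 14 transcription factor genes that act on class I promoters or in the interferon and NF-kappaB pathways, 12 were detected, with a median of 56.3 TPM. Irf1 was highest at 946, 663 and 734 TPM, close to H2-D1. Nlrc5, the class I transactivator, stood at 437, 309 and 263 TPM. Rfxap was lowest, at 1.00 ± 0.268 TPM (SD, n = 3). The class II list had a median of 11.1 TPM, and 7 of its 8 genes passed 1 TPM in every library. Cd74, the invariant chain, was highest at 45.6, 36.6 and 80.5 TPM, with a mean of 54.2 that exceeded those of H2-T22 and H2-M3. It was followed by H2-Ab1 with a mean of 16.8 and Ciita, the class II transactivator, with 11.5. H2-Oa was lowest at 0.0433 TPM.

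**Figure D5:**
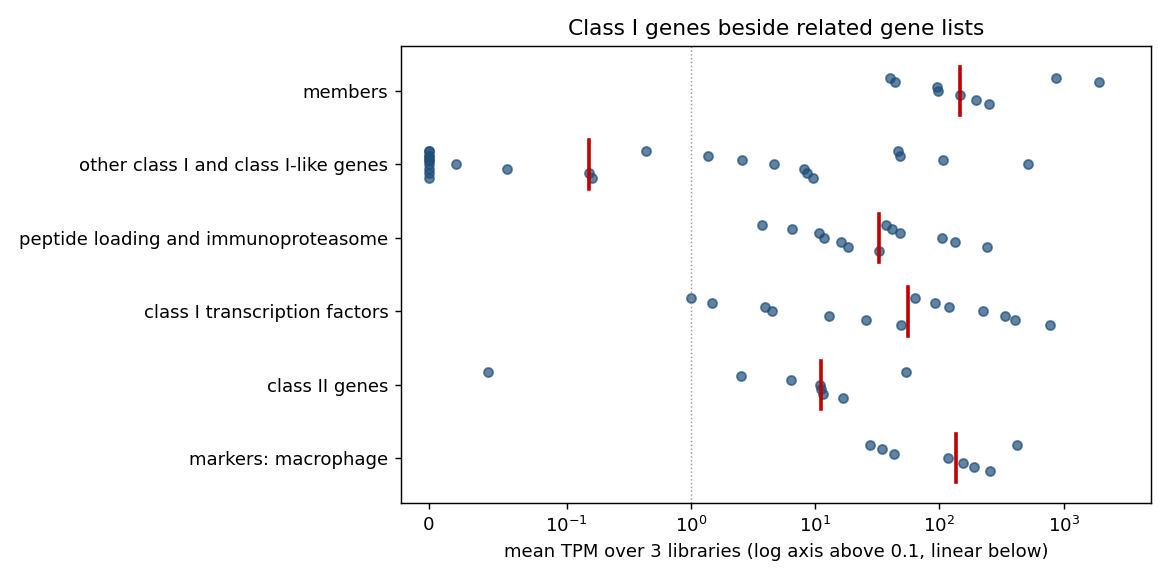
Mean TPM over 3 libraries of each gene (points) in 6 lists, with the median of each list (red line), on an axis that is logarithmic above 0.1 and linear below. The dotted line marks 1 TPM. The members, chosen with earlier results known, have the highest median, at 147 TPM. The others are 136 for macrophage markers, 56.3 for transcription factors, 32.8 for peptide loading, 11.1 for class II genes and 0.15 for other class I and class I-like genes.

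For H2-K1, H2-D1 and B2m the 3 protein-coding genes with the most similar levels were found by the mean absolute difference of log2(TPM + 1) over the 3 libraries. Nearest to H2-K1 were Lilr4b at a difference of 0.19, Tnfaip2 at 0.22 and Acod1 at 0.44. Nearest to H2-D1 were Irf1 at 0.17, Sqstm1 at 0.18 and Clec4e at 0.19. Nearest to B2m were Abi1 at 0.07, Mxd1 at 0.07 and Trim25 at 0.09. All 9 of these genes were lowest in replicate 2, as H2-K1, H2-D1 and B2m were. Choosing genes by likeness in each library favours this, so the count is not a separate result. Replicate 2 was lowest for 35.9% of protein-coding genes with a mean of at least 30 TPM. The measure takes the level and its pattern over 3 libraries together and is a description without a test.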

How the data were processed

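The 3 libraries, all of 1 group, each had a gene and a transcript table derived from a transcriptome alignment and a transcript table made from the reads and an index, on mm10 with GENCODE M21, per the file headers and each library's deposited notes. The sources used here do not give the programs. The column layouts are those of RSEM and kallisto output. The expected counts and estimated counts deposited by the authors are reads or fragments assigned to a feature and can be fractional. The deposited TPM values were corrected for effective length. The upper bound of the credible interval is a deposited score on the TPM scale, and the level of the interval is not stated.

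Read-based gene levels were sums over a gene's transcripts. All 9 members matched by symbol. CPM was the expected count over the library total, without a length correction. Log2 differences between genes or between tables, taken within each library, were tested with an exact two-sided sign-flip permutation test over 3 libraries (smallest p 0.25). Benjamini-Hochberg adjustment was over 8 neighbouring pairs or 9 members. The calculation of the fold comparison of tables was run on simulated data with planted changes larger than the limit. That checks the calculation and not how such calls perform on these data. No library pair agreed within counting noise (chi-square per degree of freedom 41.6 to 103). The members and lists were chosen with earlier results of these data known. Genes named from a list were its highest 3 and lowest 1 by mean TPM, and, for sequence sharing, class I genes holding 10% or more of a member's stretches. H2-M1 was named among 10 genes tied at 0, and some list genes are not reported here. Alternatives were the read-based tables, posterior means, protein-coding transcripts, CPM, TPM rescaled to protein-coding genes, other thresholds and leaving out each library. Python 3.11.15, pandas 2.3.3, numpy 2.4.6 and scipy 1.17.1 were used.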

Additional observations from a re-analysis of the deposited data

How the results depend on the processing

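All 9 genes were detected under every alternative run. The excess of H2-K1 over H2-D1 turned under each count of protein-coding transcripts: the log2 difference was -0.99 for protein-coding TPM, and, in alternatives chosen after seeing the data, -0.81 in the read-based tables, -0.73 as CPM and -0.61 for the transcript with the longest coding sequence. It stayed between 1.14 and 1.17 without 1 replicate. The heavy chains stayed above B2m in every alternative. With a 1.5-fold limit between the quantifications, 2 genes, H2-M3 and B2m, passed in place of 0, and with no minimum on mean TPM 12625 genes passed 2-fold in place of 1874. With a limit of 75% in protein-coding transcripts 5 genes fell under it in place of 3. Leaving out 1 replicate gave 5 to 8 neighbouring pairs beyond the spread. The 8 came without replicate 2, in a changed order set by the remaining libraries themselves, so they do not show a firmer separation. It gave 3 to 5 genes lower in the read-based tables, with 5 without replicate 1. Of 72 alternative values of the members' levels, 47 lay within 1 SD of the main value and 25 did not. The 47 include all 27 without a replicate, which could not fall outside. Leaving out 1 of 3 libraries cannot move a mean by 1 SD. The 72 also include CPM and TPM rescaled to protein-coding genes, which are other units than the main values. The cause of the shifts was not tested. Genes and tables were compared within each library, and no groups could be compared because there is 1 group. With 3 libraries the sign-flip test could not give a p below 0.25, and CPM is not corrected for length, so its order of genes is not a comparison of levels.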

Other observations

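Single transcripts of H2-K1 differed in their pattern over the libraries. The coding transcript H2-K1-201 stood at 123, 238 and 352 TPM in replicates 1, 2 and 3. Its read-based levels were 98.7, 179 and 278 TPM. The minor coding transcript H2-K1-211 stood at 2.18, 26.7 and 38.5 TPM, and both were lowest in replicate 1. The coding transcripts H2-K1-206, at 43.4, 20.6 and 28.3 TPM, and H2-K1-216, at 5.35 TPM in replicate 1, were highest in replicate 1. The retained-intron transcript H2-K1-213 stood at 208, 136 and 136 TPM, also highest in replicate 1, and H2-K1-209 at 158, 147 and 156 TPM. The total TPM of the gene in replicate 1 was close to that in replicate 3 in the alignment-based tables, at 2066 and 2184. Its read-based totals were further apart, at 1771 and 1435 TPM.

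H2-M2, a class I gene of the M family, stood at 67.9, 18.5 and 52.3 TPM, the widest spread relative to its mean among the detected class I genes named here. Its mean of 46.2 TPM was near those of H2-T22 and H2-M3, and the read-based tables gave 87.9, 25.4 and 67.5 TPM. It was chosen after its values were seen.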
